A study of Oryza sativa Japonica Group with 4 samples.

Results

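Ripening and meiotic panicles of wild-type rice, Oryza sativa Japonica Group, were compared over 17905 genes on Affymetrix arrays. The comparison used 2 of the 4 arrays in the study. The first held panicles of the wild lines collected for the ripening stage, 10 to 15 days after pollination, and the second held panicles of the wild lines at early to late meiosis. The remaining arrays, a POLA RNAi line at ripening and the pola mutant at early to late meiosis, formed a separate pair that is set beside the wild type. All plants grew in a greenhouse in natural daylight, and each array held pooled RNA of 20 panicles from 10 plants. The RNAi construct, its promoter, the cultivar and the nature of the pola mutation were not stated in the material used here. With 1 array per group there was no replicate, so differences have no replicate check and were not tested, and how many arrays there were sets the limit on precision.

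A rice panicle at meiosis is a set of growing spikelets whose anthers hold pollen mother cells and the tapetum, the layer that feeds them and supplies the pollen wall. At 10 to 15 days after pollination the same organ carries filling grains, in which the starchy endosperm lays down starch and storage proteins, the aleurone layer and the embryo store oil, minerals and protective proteins, and the maternal seed coat conducts nutrients inward. The comparison therefore sets organs of very different make-up side by side. In bulk panicles, fewer cells of a type and less RNA per cell cannot be told apart.

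Values are MAS5 signals, the linear summary that Affymetrix software gives for each probe set, scaled by the authors so that the 2% trimmed mean was 500.1 on both arrays. Signals below 163, the highest of the 4 array medians, were raised to that floor before a log2 ratio of ripening over meiosis was taken. A gene was called higher or lower where the ratio reached 2-fold. Where a signal lay at or below the floor, the fold is a lower bound and is written "at least". The median signal was 163 in ripening and 124 in meiotic panicles, and the 75th percentiles were 521 and 502. The 18 hybridization control probe sets, RNA added in fixed amounts, had a median log2 ratio of 0.65, so dim signals and spiked RNA read somewhat higher on the ripening array; the part of this in the calls is given by alternative scalings. Under those scalings the median log2 ratio of all genes moved by more than 0.1 in 2 cases, to -0.11 with the probe set median set to 0 and to -0.43 with the hybridization controls set to 0. The calls below are relative to a main median of 0. The balance of higher against lower genes depended on this choice in many of the 71 lists. With the hybridization controls set to 0, it changed sign in 20 lists and moved by more than 1.5 times, or to or from 0, in 36 more, and with the median ratio set to 0 these numbers were 8 and 31.

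Of the 17905 genes, 2108 reached 2-fold higher at ripening (11.8%) and 2315 reached 2-fold lower (12.9%). Over all 57194 probe sets, with or without a gene, 3714 were higher (6.49%) and 3507 lower (6.13%). Among the 2455 genes with a descriptive name, from which all lists below were drawn, 15.6% were higher and 15.2% lower, and these are the shares against which a list is read. Very large differences were more often on the ripening side, with 54 genes at least 64-fold higher and 12 at least 64-fold lower. The fold was a lower bound for 728 of the higher genes and 441 of the lower ones. A further 2116 genes lay at the floor on both arrays. Of the 13241 genes above the floor on both, 54.5% differed by less than 1.5-fold. Other probe sets of the same gene, where they read above the floor, all went the same way for 265 of 296 higher genes and 242 of 297 lower genes.

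**Figure D1:**
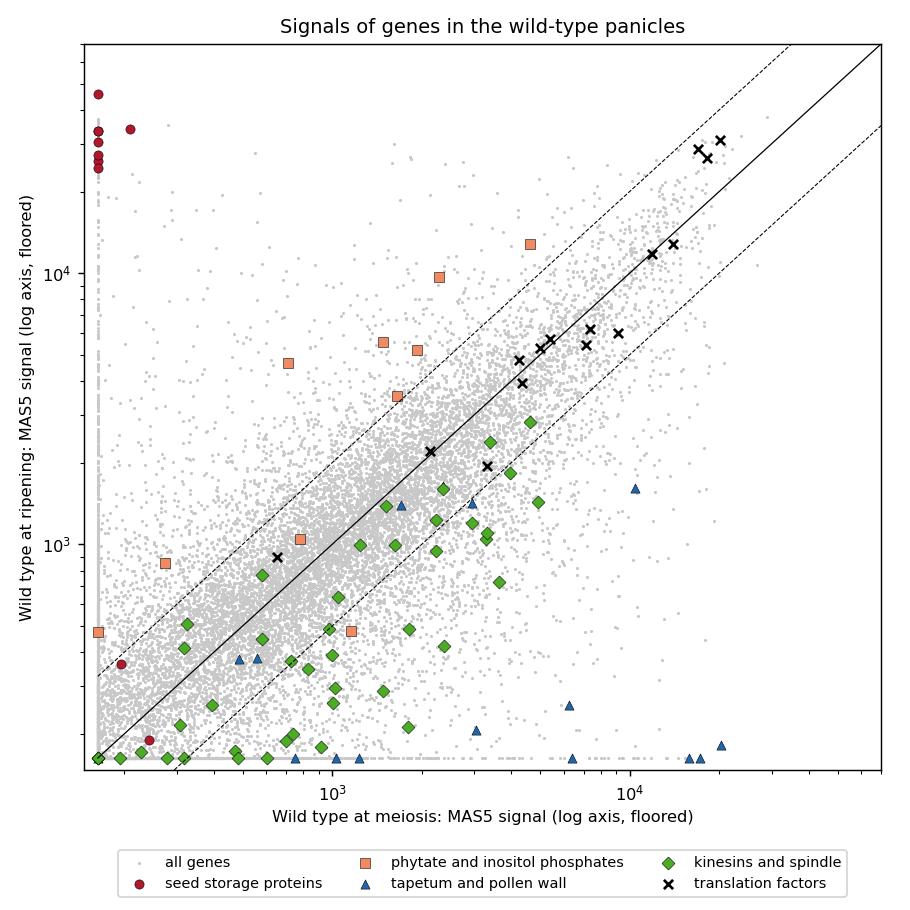
Each point is a gene, with its MAS5 signal in wild-type panicles at ripening on the vertical axis and at meiosis on the horizontal axis, both log axes with signals under 163 raised to 163; the solid line marks equal signals and the dashed lines 2-fold. Seed storage genes lie at the upper left, most phytate genes above the upper dashed line, many tapetum and spindle genes below the lower dashed line, and all 15 translation factors between the lines.

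Most marker genes differed between the arrays in the direction the stage labels give. The sums below add signals as deposited, those under the floor included, and are led by the brightest genes. Endosperm storage and starch markers, 12 genes, had a summed signal of 279003 in ripening and 1287 in meiotic panicles. At meiosis 7 of them were at the floor. Of the 12, 10 were higher, but GLUA-2 read 363 at ripening and 194 at meiosis. GLUB-4 read 191 at ripening and 243 at meiosis, and neither reached 2-fold. The 5 markers of aleurone and embryo summed to 80046 at ripening and 536 at meiosis. Conversely, 6 tapetum markers summed to 744 at ripening and 61379 at meiosis, and 4 of them were at the floor at ripening. Of the 6, 5 were lower, while PTC1 read 377 at ripening and 485 at meiosis and did not reach 2-fold. Markers of the pistil and seed coat, the MADS-box genes MADS13, MADS21 and MADS29, summed to 7238 at ripening and 672 at meiosis. The 4 meiocyte markers summed to 1342 at ripening and 3706 at meiosis, but of these MEL1 alone passed 2-fold, at 138 in ripening and 2276 in meiotic panicles. DMC1 and ASY1 read within 2-fold, and PAIR1, needed for chromosome pairing, was at the floor on both arrays. Green tissue markers, 3 genes, differed less, with 28764 at ripening and 18219 at meiosis, and none passed 2-fold. Most of that sum came from the LHCP gene LOC4324599, at 26847 in ripening and 16345 in meiotic panicles. The other LHCP gene read 1259 at ripening and 1465 at meiosis, and rbcS read 658 at ripening and 409 at meiosis. The 8 floral organ genes summed to 28573 at ripening and 38639 at meiosis, with none at the floor on either array, and they went both ways, with 2 higher at ripening (MADS58 and MADS3) and 5 lower. The part of these cell types in any single difference was not tested.

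The endosperm makes its storage proteins on the endoplasmic reticulum and moves them to protein bodies, which needs folding enzymes and sorting receptors. Of 33 such genes 4 were higher at ripening (12.1%, near the 15.6% of all named genes) and 1 lower (3.03%), with a median log2 ratio of -0.10, and with the hybridization controls set to 0 the balance turned to 7 more lower than higher. Of the storage protein genes themselves, 8 of 10 were higher, with a median of 7.37. Among the folding genes, the protein disulfide isomerase gene PDIL1-4 read 14396 at ripening and 2236 at meiosis, 6.44-fold higher. VPE1, a vacuolar processing enzyme that cuts proglutelin into its mature subunits, read 9607 at ripening and 2872 at meiosis, 3.35-fold higher. PDI, the isomerase named for proglutelin folding, read 23259 at ripening and 9294 at meiosis. The bZIP factor BZIP50, which acts in the unfolded protein response, read 1236 at ripening and 543 at meiosis. The chaperone gene BIP1 read 13351 at ripening and 8080 at meiosis, a log2 ratio of 0.72 that did not reach 2-fold, and PDIL5-4 was the lower member, at 1531 in ripening and 3429 in meiotic panicles. Most of this machinery therefore read within 2-fold of its meiotic signal.

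Phytate, inositol with a phosphate on every carbon, is the phosphorus store of the aleurone and embryo. Of 10 genes for its synthesis and transport, 8 were higher at ripening and 1 lower, with a median log2 ratio of 1.51. With the hybridization controls set to 0 the balance of 7 more higher than lower shrank to 2. INO1, the synthase that makes the inositol ring from glucose phosphate, read 12782 at ripening and 4609.6 at meiosis, 2.77-fold higher. The later kinases were higher too, with ITPK3 at 4663 in ripening and 710.0 in meiotic panicles, 6.57-fold higher. IPK1, which adds the final phosphate, read 9656 at ripening and 2278 at meiosis, 4.24-fold higher. Lpa1, named for its low phytic acid mutant, read 5580 at ripening and 1481 at meiosis. The gene for the vacuolar transporter ABCC13 read 3537 at ripening and 1648.5 at meiosis. DSM3, an inositol kinase gene also called ITPK2, differed in direction from its relatives and read 480 at ripening and 1154 at meiosis.

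Protease inhibitors, which guard stored protein, gave 5 higher (45.5%) and 0 lower of 11 genes. RASI, the rice alpha-amylase/subtilisin inhibitor, read 9528.5 at ripening and 30.8 at meiosis, a difference of at least 58.5-fold. Of the cystatins, which block cysteine proteases, OC-IV was at least 14.8-fold higher at 2418 in ripening and 155 in meiotic panicles, OC-I read 23105 at ripening and 2966 at meiosis, and OC-III read 12285 at ripening and 11859 at meiosis. RBBI3.3, a Bowman-Birk trypsin inhibitor gene, read 20892 at ripening and 2771 at meiosis. The cystatin genes thus did not move as a block.

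Regulators known from seeds were higher as well, 7 of 9, with none lower and a median log2 ratio of 1.66. Their balance of 7 became 4 with the median ratio or the hybridization controls set to 0. NF-YB-1, an endosperm subunit of the CCAAT-binding nuclear factor Y complex, read 7509 at ripening and 65.5 at meiosis, a difference of at least 46.1-fold. MFT2, of the family of phosphatidylethanolamine-binding proteins that includes florigen, read 2249 at ripening and 18.2 at meiosis. VP1, the B3-domain factor of abscisic acid response in the embryo and aleurone, read 1100.2 at ripening and 13.8 at meiosis. LFL1, another B3 factor, read 516.5 at ripening and 5.11 at meiosis. All 4 of these were below the floor at meiosis. Of the remaining 5 genes of the list, DOF2 read 417 at ripening and 822 at meiosis, a log2 ratio of -0.98 that did not reach 2-fold.

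**Figure D2:**
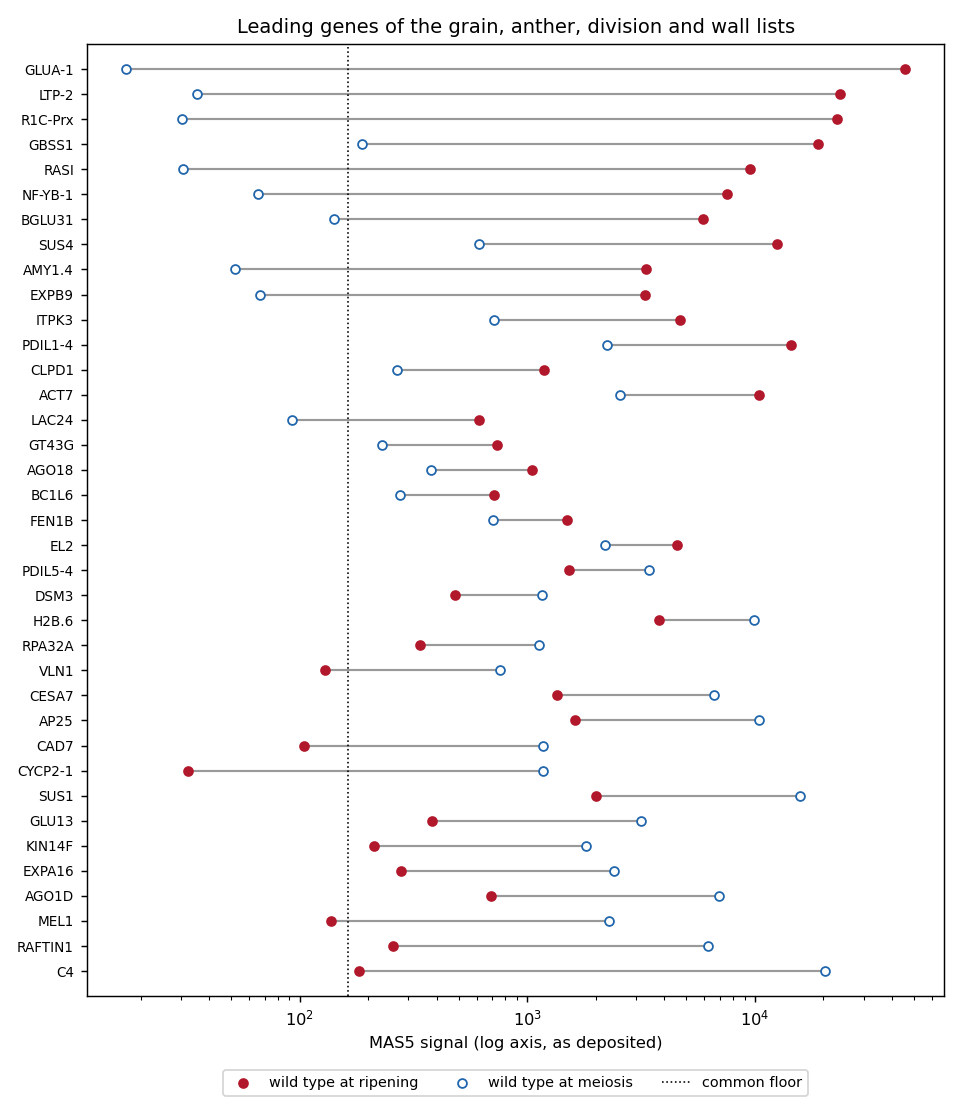
MAS5 signals as deposited (log axis) of the leading gene in each direction from every grain, anther, division and wall list, 37 genes, with wild type at ripening as filled points and wild type at meiosis as open points; the dotted line is the floor of 163. The genes run by log2 ratio, with GLUA-1 at the top and C4 at the bottom.

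Water channels and germin-like genes held members that were much higher and members that were much lower at ripening. Of 25 aquaporins, 4 were higher and 7 lower at ripening. TIP3;1, the tonoplast channel of protein storage vacuoles, read 35280.5 at ripening and 282 at meiosis, 125-fold higher, and TIP3;2 read 1746 at ripening and 132 at meiosis. NIP4;1 read 140.0 at ripening and 4670.5 at meiosis, a difference of at least 28.6-fold, and the plasma membrane channel PIP2;6 read 1597 at ripening and 18101 at meiosis, 11.3-fold lower. Plasma membrane relatives PIP1;2 and PIP2;1 read 13484 and 12903 at ripening and 17570.3 and 16966 at meiosis, so neither reached 2-fold. For PIP2;1 the log2 ratio of -0.395 turned to 0.441 with the mean over its probe sets. Among 9 germin-like genes, 4 were higher (44.4%) and 3 lower (33.3%). GER3 read 36773 at ripening and 26.1 at meiosis, a difference of at least 226-fold, while GLP110 (also GER5) read 315 at ripening and 12530.5 at meiosis, 39.7-fold lower. Of 5 lipid transfer protein genes, 2 were higher (40.0%) and 0 lower. LTP-2 read 23674 at ripening and 35.5 at meiosis, a difference of at least 145-fold, and LTP (LOC4351318) read 10605 at ripening and 98.4 at meiosis. Peroxidases went both ways as well, with PRX112 at 5949 in ripening and 74.96 in meiotic panicles and PRX74 at 63.5 in ripening and 5490 in meiotic panicles.

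In the nutrient transport lists, higher genes outnumbered lower ones, but not under every scaling. Of 45 phosphate and potassium transporter genes, 10 were higher (22.2%) and 0 lower, with 15 at the floor on both arrays and a median log2 ratio of 0.0. Their balance of 10 became 6 with the median ratio set to 0 and 2 with the hybridization controls set to 0. Pht1;8, a phosphate importer, read 2147 at ripening and 269 at meiosis, 7.99-fold higher. PHO1;2, a phosphate exporter that acts in loading the grain, read 2006 at ripening and 459 at meiosis, 4.37-fold higher, and the potassium transporter gene HAK10 read 3116 at ripening and 1109 at meiosis. Of 25 nitrogen genes, 9 were higher (36.0%) and 2 lower, a balance of 7 that became 1 with the hybridization controls set to 0. GDH2, a glutamate dehydrogenase gene, read 2589 at ripening and 377 at meiosis, 6.87-fold higher. The glutamine synthetase genes divided, since GLN1-3 read 3473 at ripening and 973 at meiosis and GLN1-1 read 3873 at ripening and 11650 at meiosis. Metal transporters counted 9 higher and 2 lower of 55, a share of 16.4% that was close to the 15.6% of named genes, and the balance turned to 2 more lower than higher with the hybridization controls set to 0. YSL12, a metal-nicotianamine transporter gene, read 1566 at ripening and 85.1 at meiosis, and NAAT1, whose enzyme makes iron-chelating mugineic acids, read 1326 at ripening and 17.7 at meiosis.

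Energy metabolism was higher at a few steps. Of 20 genes of glycolysis and pyruvate metabolism, 6 were higher and 0 lower, a balance that became 3 with the hybridization controls set to 0. PPDKB, pyruvate orthophosphate dikinase, read 27816 at ripening and 549.6 at meiosis, 50.6-fold higher, and PPDK2 read 2295 at ripening and 46.8 at meiosis. Adh2, an alcohol dehydrogenase used when oxygen is short, read 2925 at ripening and 155 at meiosis, a difference of at least 17.9-fold. GAPC, a glyceraldehyde phosphate dehydrogenase gene, read 25630.0 at ripening and 19558 at meiosis, and FBA1, an aldolase gene, read 10441 at ripening and 11202 at meiosis. Both were thus within 2-fold, and GAPC, at a log2 ratio of 0.39, turned to -0.30 with quantile normalization and to -0.26 with the hybridization controls set to 0. BGLU31, a beta-glucosidase gene, read 5925 at ripening and 141 at meiosis. TPP3, for trehalose phosphate phosphatase, read 1873 at ripening and 117 at meiosis.

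Tapetum genes were lower at ripening, while the other anther lists held few calls or went both ways. The list for the tapetum and pollen wall held 16 genes, 11 of them lower and 0 higher (median log2 ratio -2.67). CYP703A3, a fatty acid hydroxylase needed for the pollen wall, read 12.9 at ripening and 6416 at meiosis, a difference of at least 39.4-fold. RAFTIN1, a tapetal protein that reaches the microspore surface, read 256 at ripening and 6236 at meiosis, 24.4-fold lower. TDL1B read 207 at ripening and 3054.5 at meiosis. TDR, a bHLH factor of tapetal death, read 25.2 at ripening and 1232 at meiosis. Genes of meiosis itself gave little, with 3 lower (16.7%, near the 15.2% of all named genes) and 0 higher of 18, and 5 at the floor on both arrays. Phenylpropanoid and flavonoid enzymes gave 4 higher and 8 lower of 34. MEL1, an Argonaute of germ cells, read 138 at ripening and 2276 at meiosis, a difference of at least 14.0-fold. The recombinase gene DMC1 read 188 at ripening and 178 at meiosis, and the axis gene ASY1 read 998 at ripening and 1108 at meiosis. AGO1D, an Argonaute outside that list, read 689 at ripening and 6959 at meiosis, 10.1-fold lower.

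Lower genes outnumbered higher ones in each of the cell division lists, although none of these lists had a majority called lower. Of 44 kinesins, NEK kinases and other spindle genes, 21 (47.7%) were in the lower class and 0 in the higher, at a median log2 ratio of -0.98. KIN14F, of the kinesin-14 motors, read 212 at ripening and 1803.5 at meiosis, 8.53-fold lower. KIN14H, also a kinesin-14 gene, read 421 at ripening and 2381.5 at meiosis. KIN5A, of the kinesin-5 motors that push spindle poles apart, read 178 at ripening and 919.7 at meiosis, 5.15-fold lower. Cyclins and their kinases gave 16 lower (35.6%) and 1 higher of 45, and DNA replication genes 6 lower (18.2%) and 1 higher of 33. Histone and chromatin genes gave 2 lower and 0 higher of 20, a share of 10.0% that lay under the 15.2% of all named genes. Genes of DNA methylation and small RNA gave 6 lower (20.0%) and 2 higher (6.67%) of 30. Tubulins, actins and their partners gave 12 lower (27.9%) and 2 higher (4.65%) of 43. The beta-tubulin gene TUBB1 read 4425 at ripening and 15152 at meiosis, 3.42-fold lower, and the actin bundling gene Villin-2 read 3832 at ripening and 12635 at meiosis. The higher members of that list were ACT7, an actin gene, at 10398 in ripening and 2562 in meiotic panicles, and the formin gene FH16, at 1219.9 in ripening and 336 in meiotic panicles.

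Lower genes outnumbered higher ones in both lists of wall synthesis, without being a majority, and wall loosening and hydrolysis genes went both ways. Of 34 cellulose synthases, their relatives and BC1L genes, which are not synthases, 16 were lower (47.1%) and 3 higher (median log2 ratio -0.90). The higher ones were BC1L6, BC1L9 and CSLF2, and BC1L2 was among the lower ones. Expansins, which loosen walls, gave 5 higher and 6 lower of 29, and endo-glucanases and beta-glucosidases 10 higher and 10 lower of 41. CESA4 and CESA7, whose products make secondary walls, read 1670.5 and 1349.8 at ripening and 6476 and 6613 at meiosis. CESA6, a gene of the primary wall complex, read 1703 at ripening and 7183 at meiosis. CSLF6, the synthase of mixed-linkage glucan, read 1547 at ripening and 5493 at meiosis. Of 43 genes in the hemicellulose and pectin list, 20 were lower (46.5%) and 1 higher (median log2 ratio -0.85). The lower ones included RAFTIN1, the tapetal protein gene given above. GT43C (also IRX9), a glycosyltransferase gene of the xylan backbone, read 144 at ripening and 3899 at meiosis, a difference of at least 23.9-fold. XOAT11, an acetyltransferase gene of xylan, read 474 at ripening and 7090 at meiosis, and its relatives XOAT5 and XOAT6 had log2 ratios of -2.31 and -2.87. UGD4, UDP-glucose dehydrogenase, which supplies the sugars of these chains, read 1766.5 at ripening and 12335 at meiosis, 6.98-fold lower. GT43G, of the same glycosyltransferase family as GT43C, went the other way at 738 in ripening and 230 in meiotic panicles.

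**Figure D3:**
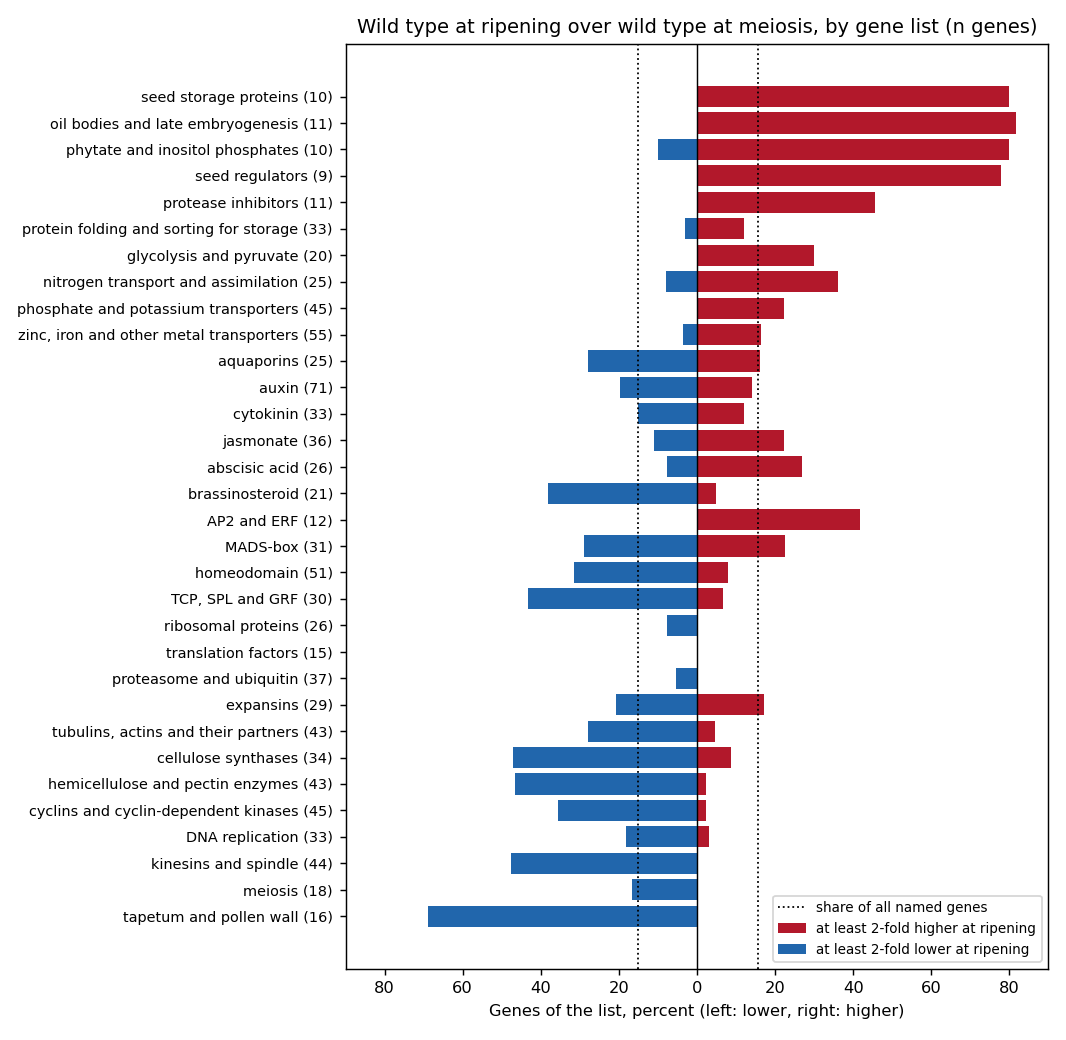
Bars give, for 32 of the 71 gene lists, the percent of genes at least 2-fold higher in wild type at ripening than at meiosis (right) and at least 2-fold lower (left), with the number of genes in brackets; dotted lines mark the 15.6% and 15.2% of all named genes. Storage, phytate and seed regulator lists reach about 80% on the right, and tapetum, spindle and wall lists extend past 45% on the left.

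Among regulators of organ growth, lower genes outnumbered higher ones, although in none of these lists was a majority called lower. Among 30 TCP, SPL and GRF factors, which set the pace of cell division and branching in young organs, 13 were lower (43.3%) and 2 higher, with a median log2 ratio of -0.91. SPL16, known as a determinant of grain width, read 96.8 at ripening and 1841 at meiosis, a difference of at least 11.3-fold. PCF7, of the TCP family, read 206 at ripening and 2163 at meiosis, 10.5-fold lower. SPL11 read 3948.5 at ripening and 1775 at meiosis and SPL1 read 1079 at ripening and 466 at meiosis, the higher members. Of 51 homeodomain genes, 16 were lower (31.4%) and 4 higher, with 13 at the floor on both arrays and a median log2 ratio of -0.04. Hox21, a homeodomain-leucine zipper gene, read 122 at ripening and 2014 at meiosis, a difference of at least 12.4-fold. HOX4, of the same class, read 1088 at ripening and 5401 at meiosis. HOX6 read 957 at ripening and 285 at meiosis. YABBY, GRAS and other floral regulators gave 5 lower and 3 higher of 20. YABBY4 and YABBY5, from a family of lateral organ polarity factors, had log2 ratios of -2.88 and -2.59, and YABBY6 read 7823 at ripening and 2722 at meiosis. PHAN, a MYB factor of leaf and flower primordia, read 853 at ripening and 5959 at meiosis.

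Most hormone lists held genes of both directions. Of 21 brassinosteroid genes, 8 were lower (38.1%) and 1 higher (4.76%). CPD2, an enzyme of hormone synthesis, read 297 at ripening and 2295 at meiosis, 7.73-fold lower. DWARF11, another synthesis enzyme, read 190.3 at ripening and 998 at meiosis, and the receptor gene BRI1 read 1574 at ripening and 3908.5 at meiosis. The C6-oxidase gene, which acts near the end of synthesis, read 4686.5 at ripening and 1780 at meiosis. Of 71 auxin genes, 10 were higher (14.1%) and 14 lower (19.7%), against 15.6% and 15.2% of all named genes. That balance of 4 more lower became 12 with the median ratio set to 0, 18 with the hybridization controls set to 0 and 2 with loess centring. The higher ones included genes that inactivate the hormone by conjugation or oxidation. GH3.2 read 2236 at ripening and 111 at meiosis, GH3-8 read 4016 at ripening and 315 at meiosis, and DAO, the dioxygenase gene, read 9231 at ripening and 1067 at meiosis. The lower ones included repressors and response factors, with IAA31 at 523 in ripening and 5811 in meiotic panicles and ARF9 at 399 in ripening and 3494.5 in meiotic panicles. Cytokinin genes gave 4 higher (12.1%) and 5 lower (15.2%) of 33, a balance that had no settled direction. It was 1 more higher than lower with loess centring, 3 more lower with quantile normalization or a floor of 326, 7 more lower with the median ratio set to 0 and 9 more lower with the hybridization controls set to 0. RR41, a response regulator gene, read 4999 at ripening and 14.5 at meiosis, a difference of at least 30.7-fold. For ethylene, the transcription factor gene EIL1 (LOC4332697) read 3116 at ripening and 109 at meiosis, while ACO1, which makes the gas, read 462 at ripening and 1865 at meiosis. Of 16 genes listed under gibberellin by their symbols, 2 were higher (12.5%) and 1 lower (6.25%). The lower one, the repressor gene SLR1, read 666.5 at ripening and 1946 at meiosis, 2.92-fold lower. The higher ones were CYP701A8, at 2487 in ripening and 107 in meiotic panicles, and SLRL1, at 530 in ripening and 79.2 in meiotic panicles. Listing by symbol does not show that CYP701A8 acts in gibberellin synthesis.

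**Figure D4:**
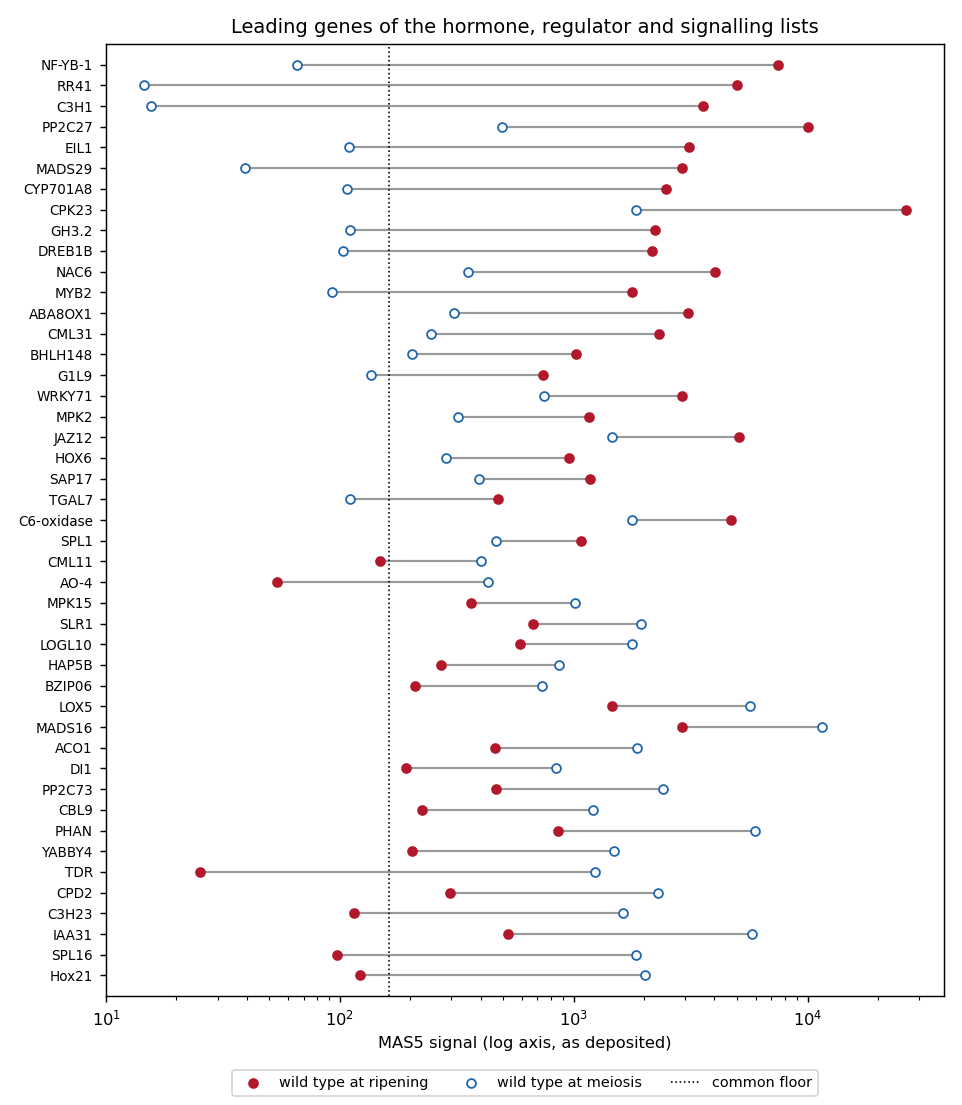
MAS5 signals as deposited (log axis) of the leading gene in each direction from every hormone, regulator and signalling list, 45 genes, with wild type at ripening as filled points and wild type at meiosis as open points; the dotted line is the floor of 163. NF-YB-1 stands at the top and Hox21 at the bottom, and many of the higher genes were below the floor at meiosis.

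Signalling genes showed large single differences inside mixed lists. CPK23, a calcium-dependent protein kinase gene, read 26454 at ripening and 1838 at meiosis, 14.4-fold higher. Its list of 51 genes, which held CBL9 beside the kinases, had 3 higher (5.88%) and 7 lower (13.7%). Both shares lay under the 15.6% and 15.2% of all named genes. PP2C27, a type 2C phosphatase gene, read 9999 at ripening and 495 at meiosis, 20.2-fold higher. Its list of 55 had 12 higher (21.8%) and 7 lower (12.7%). That phosphatase balance turned to 3 more lower than higher with the median ratio set to 0 and to 7 more lower with the hybridization controls set to 0. C3H1, a CCCH zinc finger gene, read 3566 at ripening and 15.6 at meiosis. ABA8OX1, whose enzyme breaks down abscisic acid, read 3087 at ripening and 306 at meiosis, 10.1-fold higher. Lists of light-related genes differed in their calls, against 15.6% higher and 15.2% lower of all named genes. Photosystem and chlorophyll-binding genes gave 3 higher (13.0%) and 2 lower (8.7%) of 23. Calvin cycle and photorespiration genes gave 4 higher (36.4%) and 0 lower of 11. Phytochrome, clock and flowering genes gave 3 higher (13.0%) and 4 lower (17.4%) of 23. PORA, a light-dependent protochlorophyllide oxidoreductase of chlorophyll synthesis, read 225 at ripening and 2511 at meiosis, 11.2-fold lower. The blue light receptor gene PHOT1A read 4037 at ripening and 440.4 at meiosis. Hd3a, florigen, read 955 at ripening and 125 at meiosis, a difference of at least 5.86-fold.

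Lists of protein synthesis and turnover held few calls in the main setting. None of 15 translation factors reached 2-fold in either direction, with a median log2 ratio of 0.05. Ribosomal protein genes gave 0 higher and 2 lower of 26, and proteasome and ubiquitin genes 0 higher and 2 lower of 37. The metallothionein gene MT2C, among the 10 brightest genes on both arrays, read 37805 at ripening and 29058 at meiosis, a log2 ratio of 0.38 that turned to -0.27 with the hybridization controls set to 0 or with quantile normalization. Signals of different probe sets are not levels on one scale, so no order of expression is read from this.

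The RNAi line at ripening over the pola mutant at meiosis gave a second ripening to meiosis ratio on arrays that the wild type did not share. It is no replicate, since the genotypes differ. Its arrays were dimmer at the median, at 65.7 in RNAi ripening and 51.8 in mutant meiotic panicles, so the floor of 163 covered more of them. Probe sets above the floor made up 38.0% in RNAi ripening and 36.8% in mutant meiotic panicles, against 50.0% in wild-type ripening and 43.9% in wild-type meiotic panicles, and the part of this in the differences between the pairs was not tested. In that pair 1969 genes were higher (11.0%) and 2395 lower (13.4%). Of the 2108 genes higher at ripening in wild type, 1428 (67.7%) passed 2-fold the same way there and 3 the opposite way. Of the 2315 lower genes, 1833 (79.2%) did so, with 3 opposite. Among genes past 4-fold in wild type, 668 of 724 higher genes and 738 of 753 lower genes passed 2-fold the same way. Members differed in how near the pairs were. ITPK3 had a log2 ratio of 2.72 in the wild-type pair and 3.29 in the other pair. For PPDKB these were 5.66 in wild type and 5.79 in the other pair, and for XOAT11 they were -3.90 in wild type and -3.72 in the other pair. RAFTIN1 had -4.61 in wild type and -5.91 in the other pair. The inositol kinase gene DSM3 passed 2-fold in wild type alone, at -1.27 there and -0.48 in the other pair, and the tapetum gene PTC1 in the other pair alone, at -0.36 in wild type and -2.27 in the other pair.

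Counts differed between the pairs in the AP2 and ERF, calmodulin-like and jasmonate lists, and less in lists of stress proteins. Heat shock genes gave 12 higher in wild type and 14 in the other pair, and chitinases 10 and 8. For thioredoxins and their relatives these numbers were 11 and 9, and for metallothioneins 4 and 4. Of 12 AP2 and ERF genes, 5 were higher in wild type and 0 in the other pair. The cold-response factor DREB1B read 2171 in wild-type ripening and 103 in wild-type meiotic panicles, and 264 in RNAi ripening and 44.7 in mutant meiotic panicles. DREB1G read 1722 in wild-type ripening and 77.6 in wild-type meiotic panicles, and 175 in RNAi ripening and 115 in mutant meiotic panicles. Calmodulin-like genes gave 7 higher and 3 lower of 26 in wild type, against 2 and 2 in the other pair. CML31 read 2317 in wild-type ripening and 244 in wild-type meiotic panicles, and 568 in RNAi ripening and 321 in mutant meiotic panicles. Jasmonate genes gave 8 higher and 4 lower of 36 in wild type, and 3 higher and 7 lower in the other pair. JAZ12, from the JAZ family of jasmonate repressors, read 5100 in wild-type ripening and 1460.5 in wild-type meiotic panicles, and 4890.3 in RNAi ripening and 3334 in mutant meiotic panicles. In wild type both balances turned to 1 more lower than higher with the median ratio set to 0, and to 4 and 10 more lower with the hybridization controls set to 0. The difference between the pairs was not tested.

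**Figure D5:**
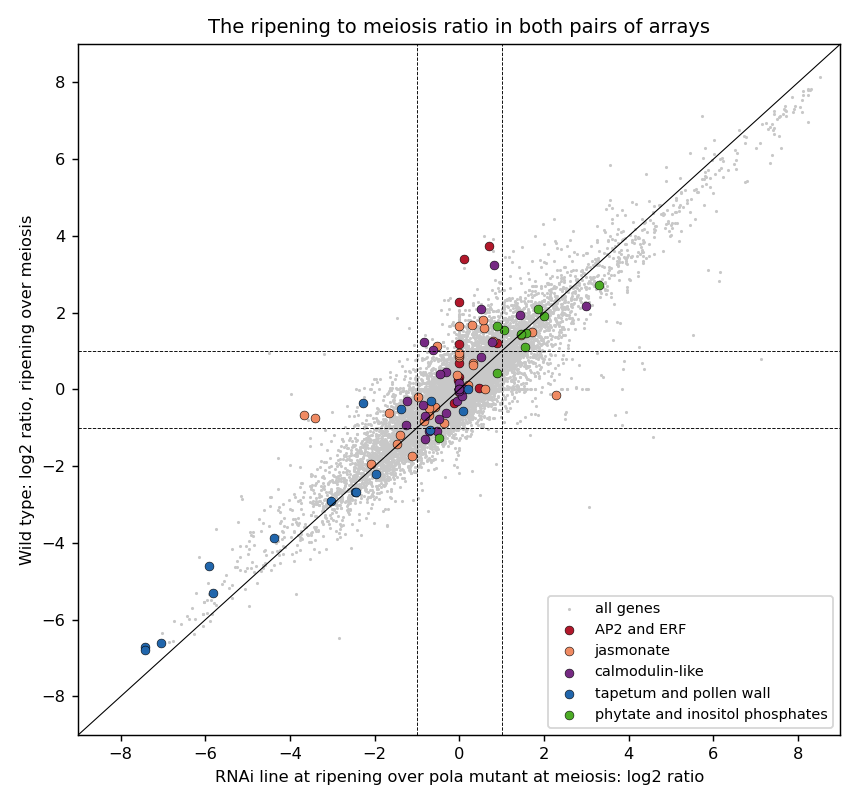
Each point is a gene, with the log2 ratio of ripening over meiosis in wild type on the vertical axis and that of the RNAi line at ripening over the pola mutant at meiosis on the horizontal axis, after the floor of 163; dashed lines mark 2-fold. Of the marked lists, 11 tapetum genes are lower in wild type and 12 in the other pair, and 8 phytate genes are higher in wild type and 7 in the other pair. DREB1B, DREB1G and CML31 lie above 3 in wild type and below 1 in the other pair.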

How the data were processed

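The deposited intensity values came from MAS5, as the submitters' processing notes name it, and are linear; its version, the scanner and detection calls were not stated in the material used here. Per the labels' protocols, Trizol was used for extraction, and biotin labelling followed the one-cycle method. The RNAi sample's description names wild lines, and its title, source and genotype were followed.

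Of the probe sets, 187 controls (123 AFFX and 64 reporter) were left out, leaving 57194, of which 22436 were paired with 1 gene, 95 with several and 34663 not listed in the platform annotation used here. Names came from a RefSeq table of assembly GCF_034140825.1, used for names only, and all 17905 gene identifiers matched. That table holds symbols and synonyms and no descriptions, so lists were built from those. A gene was represented by the probe set paired with it alone that had the highest mean over the 4 arrays, and by an _x_at probe set only where there was no other. Signals were floored at 163, and 2-fold was the threshold.

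The genes named are the 10 highest and 10 lowest with a descriptive name, up to 3 each way per list, and the 10 brightest on each wild-type array. Others (BIP1, OC-III, RBBI3.3, LFL1, DOF2, INO1, PAIR1, PIP1;2, PIP2;1, HAK10, GLN1-3, GAPC, FBA1, TDL1B, DMC1, ASY1, CESA4, CESA6, CSLF6, XOAT5, XOAT6, UGD4, BRI1, PTC1, MADS58, MADS3) were chosen after their values were seen. The members and all 71 lists, with 1775 genes, were chosen with earlier results of these data known. The calling step was run on simulated data in which only probe sets far above the floor were changed, by 4-fold. Their recovery at 2-fold was thus close to certain, and the run does not bear on dim genes. Planned work on promoter sequences was not done. Python 3.11.15, numpy 2.4.6, pandas 2.3.3 and statsmodels 0.14.6 were used. The alternatives were 3 scalings, the hybridization controls, a pseudocount, other floors, a 4-fold threshold and the mean over probe sets.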

Additional observations from a re-analysis of the deposited data

Results flagged for a closer look

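For 6 genes the ripening to meiosis difference passed 2-fold one way in wild type and the opposite way between the RNAi line and the pola mutant. The difference between the pairs was not tested, and each rests on 1 array per group. TPP7, a trehalose phosphate phosphatase gene, had a log2 ratio of 1.61 in wild type and -1.19 in the other pair, with 380.4 in RNAi ripening and 868 in mutant meiotic panicles. LOC4344351 and LOC4348113 had 1.86 and 1.17 in wild type, and -1.47 and -1.07 in the other pair. C3H40, a CCCH zinc finger gene, read 129 in wild-type ripening and 388 in wild-type meiotic panicles, a log2 ratio of -1.25, and 3867 in RNAi ripening and 24.2 in mutant meiotic panicles, 4.57. LOC4325215 read 56.9 in wild-type ripening and 1354 in wild-type meiotic panicles, -3.05, and 1358 in RNAi ripening and 29.8 in mutant meiotic panicles, 3.06. LOC4324525 had -1.20 in wild type and 1.66 in the other pair.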

How the results depend on the processing

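Gene counts stayed within 1.5 times of the main ones (2108 higher, 2315 lower) under the median, quantile and loess scalings, a pseudocount of 23.4, floors of 81.5 or 326 and probe set means. Setting the hybridization controls to 0 gave 1034 higher and 4811 lower genes, and 1619 higher and 7274 lower probe sets against 3714 and 3507. The higher share of called genes, 47.7% in the main setting, was 31.8% with the median ratio set to 0 and 17.7% with those controls. A 4-fold threshold left 724 higher and 753 lower genes, and 1139 and 1075 probe sets. Higher probe sets numbered 2422 with the median ratio at 0, 9674 with the pseudocount (6111 lower), 6653 at the floor of 81.5 and 2301 at 326. Under all 8 alternatives for single genes, 883 genes were called higher and 1664 lower. None of the 327 named genes past 2-fold changed sign, but most alternatives could not turn a sign. Shifts of 0.287 or 0.649, other floors and a pseudocount leave the sign of a 2-fold ratio as it is. Of 320 genes of the naming rule, 43 left or joined the calls with the hybridization controls and 39 with the floor of 326. With the median at 0 these were 19, with probe set means 17, and fewer under the others. Of the 19 named genes under 2-fold, 11 changed sign under at least 1 alternative, MT2C, GAPC, OC-III and DMC1 among them. Leaving out genes at the floor on both arrays could not alter a count, since their ratio is 0.

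Higher minus lower genes changed sign in some lists. With the hybridization controls this became -10 for jasmonate, -7 for storage folding and for phosphatases 2C, -6 for photosystems, -5 for DOF and SAP, thioredoxins, respiration and trehalose, -4 for gibberellin, calmodulin-like genes and peroxidases, -3 for heat shock, -2 for sucrose, proteases, abscisic acid, NF-Y, MAP kinases and metals, and -1 for ABC transporters and tocopherol. With the median at 0 it became -3 for phosphatases 2C and respiration and -1 for jasmonate, NF-Y, DOF and SAP, calmodulin-like genes, peroxidases and trehalose. It became 1 for cytokinin (loess), CCCH genes (floor of 326) and calcium and proton pumps (pseudocount). The cause was not tested. No paired analysis was possible because each group had 1 array. Signals under the floor carry no order.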
